A study of Mus musculus with 12 samples.

Results

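The genes described here encode the proteins of the cytosolic ribosome. They were taken from the gene table of a mouse testis RNA-seq series as every protein-coding gene whose symbol begins with *Rpl* or *Rps* and a number, or with *Rplp* or *Rpsa*, leaving out the *Rps6k* kinases and *Rps19bp*. The rule found 139 of the 37675 genes listed: 76 core genes, 8 paralogs of core genes, and 55 further genes that carry the name of a numbered copy (such as *Rpl26-ps4*) but are annotated as protein coding in the mm9 gene models. Another 108 genes of the same names are not annotated as protein coding and were left out.

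Whole testes of C57BL/6NHsd mice were collected at postnatal day (PND) 7, 14, 17, 21 and 28, with 2 mice at each age and no treatment. These ages follow the first wave of spermatogenesis, in which spermatogonia enter meiosis and give rise to spermatocytes and then round spermatids. Because whole testes were sequenced, fewer cells of a type and less RNA per cell cannot be told apart in any value below, and the age groups differ in cell makeup by design.

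A ribosome consists of ribosomal RNA and a large and a small subunit set of proteins (RPL and RPS), most of them needed in equal number, and every cell type transcribes their genes. Mammalian genomes carry many processed copies of these short, abundant mRNAs. A few of the copies are active genes: *Rpl10l* and *Rpl39l* are autosomal paralogs of X-linked parents and are known for their expression in male germ cells, and the X chromosome is silenced in spermatocytes during meiosis. Many ribosomal protein genes also host small nucleolar RNAs (snoRNAs), which guide the chemical modification of ribosomal RNA and are cut from the introns of the host transcript.

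Some of these snoRNA genes lie inside the exons of the gene models that the deposited counts use, where an annotated transcript retains the intron. In all, 61 small RNA genes lie within 32 of the members, and 18 of them lie wholly within exons of 14 members. For 18 of these 18 the snoRNA count never exceeded the count of its host in any of the 10 mice. By contrast, 26 of the 40 small RNA genes that lie only in introns had a higher count than their host in at least 1 mouse. The counts of the 18 nested snoRNAs came to 280002, against 324782 for their 14 hosts, and to 57.6% of all counts listed for the 139 members. The 4 nested sequences below are examples from hosts in which the nested snoRNA made up most of the count. They are read from the mm9 genome on the strand of the host, 5′ to 3′. Capitals mark the C box (TGATGA) and the D box (CTGA) of the C/D snoRNAs, which guide methylation, and the ACA box of the H/ACA snoRNAs, which guide pseudouridylation.

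Snord15b, in *Rps3*, chr7:106628073-106628217, minus strand: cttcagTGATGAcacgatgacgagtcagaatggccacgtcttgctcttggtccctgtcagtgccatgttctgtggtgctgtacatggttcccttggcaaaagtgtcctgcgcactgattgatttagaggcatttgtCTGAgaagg
Snord68, in *Rpl13*, chr8:125626938-125627023, plus strand: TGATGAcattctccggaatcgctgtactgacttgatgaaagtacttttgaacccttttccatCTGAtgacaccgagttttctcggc
Snora52, in *Rplp2*, chr7:148634702-148634838, plus strand: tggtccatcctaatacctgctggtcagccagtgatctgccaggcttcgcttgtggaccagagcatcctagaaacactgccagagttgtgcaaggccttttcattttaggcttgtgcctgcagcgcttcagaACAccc
Snora70, in *Rpl10*, chrX:71517823-71517959, plus strand: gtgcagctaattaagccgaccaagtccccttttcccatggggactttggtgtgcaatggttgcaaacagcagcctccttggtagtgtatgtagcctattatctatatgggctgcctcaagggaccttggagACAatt

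*Rps3* had 102690 counts over all mice and Snord15b 83786. *Rpl13* had 29108 counts and Snord68 28266, *Rplp2* had 12081 and Snora52 10965, and *Rpl10* had 3558 and Snora70 3150. In 11 of the 14 hosts the nested snoRNAs made up over 50% of the count, with 99.1% in *Rpl7a*, and the lowest share was 5.92% in *Rps20*. Host genes are therefore described below as deposited and with these counts subtracted, a step added after the values were seen. The subtraction takes each snoRNA read to have been counted for its host as well, which is inferred from these values, since the rule of the counting tool for overlapping genes is not given in the sources used here. No subtraction gave a negative count, which was possible only in hosts with several nested snoRNAs, since no single snoRNA exceeded its host.

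Counts summed to between 3994026 and 13559548 per mouse. Between 15.1% and 37.3% of counts lay on mitochondrial genes and between 2.80% and 8.34% on small structural RNAs. The small RNA share differed within ages: it was 4.31% and 8.28% at PND 14, and 3.01% and 5.75% at PND 21. The age labels were checked against marker lists. The summed RPKM (the read count scaled by exon length and by library size) of 6 spermatocyte genes went from 98.8 and 114 at PND 7 to 3540 and 3780 at PND 28, and that of 7 spermatid genes from 0.0 and 1.62 to 8900 and 10900. The first PND 14 mouse stood apart on the spermatid list, at 458 against 18 in the second and at most 19.3 at PND 17. None of these genes was at 0 in every mouse. The numbers of calls and the largest deposited changes in PND 7/14 are given with and without the first PND 14 mouse.

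Levels differed greatly among the members. Of the 76 core genes, the lowest mean RPKM over 10 mice was 0.155 and the median 6.79. Among the 5 highest members as deposited were *Rps3*, *Rpl39l* and *Rpl7a*, at 311, 297 and 251 RPKM. With the nested snoRNA counts subtracted, *Rps3* and *Rpl7a* stood at 57.6 and 2.49 RPKM. *Rpl39l* holds no small RNA gene in its exons. Among core genes and paralogs the lowest means were those of *Rps27* at 0.155, *Rpl3l* at 0.228, *Rpl36* at 0.285, *Rps23* at 0.616 and *Rpl36a* at 0.832 RPKM. The 55 numbered copies had a median of 0.134 RPKM, and the highest of them were *Rplp2-ps1* at 14.3, *Rps6-ps1* at 3.79 and *Rpl23a-ps3* at 2.58. The copies listed at 0 in every mouse were *Rpl10-ps3*, *Rpl21-ps6*, *Rpl21-ps10*, *Rpl27-ps3*, *Rps12-ps3*, *Rps19-ps1* and *Rps19-ps2*.

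The deposited counts are of uniquely aligned reads of 50 bases. The longest annotated coding sequence of each gene was therefore cut into all its windows of 50 bases, and each window was searched in the rest of the mm9 genome. Over the 84 core genes and paralogs the median share of coding windows with an exact copy elsewhere was 88.5%. It was 100% in 27 genes and 0 in 4. The 17 genes with under 50% of such windows had a median of 32.7 RPKM, the 27 genes between 50% and 90% a median of 12.8, and the 40 genes at 90% or above a median of 2.59. After subtraction these medians were 32.7, 8.71 and 2.49 RPKM. Across these 84 genes, which share the same libraries, Spearman's rho between the share and the mean RPKM was -0.58 as deposited and -0.68 after subtraction, given as a description. *Rpl39l*, with no repeated window, stood at 297 RPKM, and *Rpl8* and *Rpl4*, both large subunit proteins with 8.8% and 20.2% repeated windows, at 188 and 169. *Rps27*, with all its windows repeated, had 4 counts over 10 mice. *Rpl3l*, a paralog known from muscle, at 0.228 RPKM, also had no repeated window. For *Rpl24*, at 14.3 RPKM, the share was also 0, over a coding sequence of 3104 windows. That is far longer than in most members, so this share may not describe the sequence of the ribosomal protein itself. *Rpl13a*, at 18.1%, had 1223 coding windows against 563 in its copy *Rpl13a-ps1*. Counts cover the whole exon model, of which a smaller share was repeated in many genes, such as 23.6% in *Rpl10*, where all coding windows are repeated. RPKM values of different members are thus not set against each other below, except within the paralog pairs, where the shares of repeated windows of both genes are given.

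**Figure D1:**
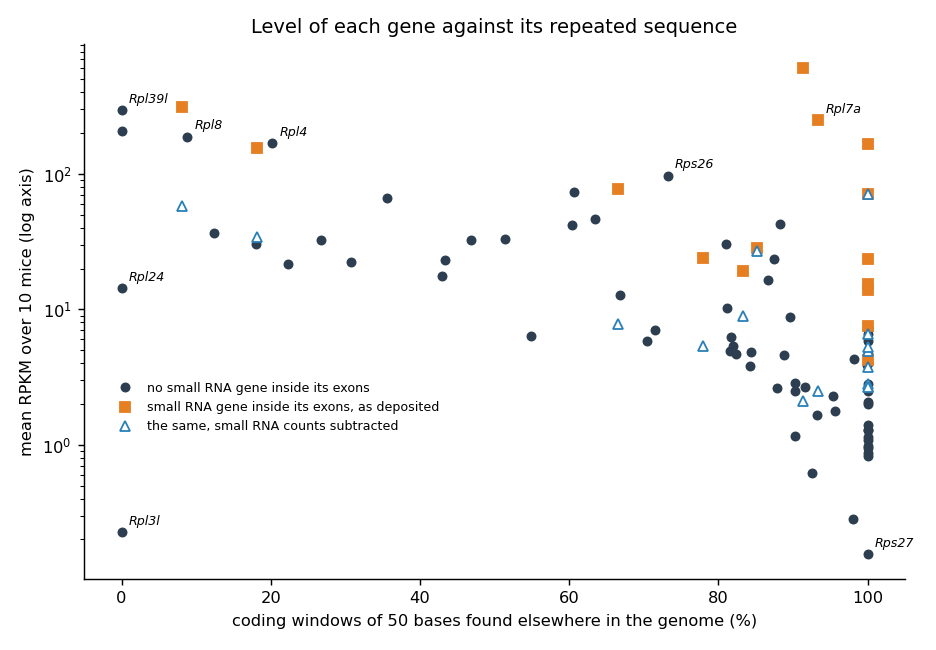
Mean RPKM over 10 mice (log axis) of the 84 core genes and paralogs against the percentage of their coding windows of 50 bases that occur elsewhere in the genome. Circles are genes with no small RNA gene inside their exons, squares are the other genes as deposited and triangles are the same genes after subtraction of the nested counts; *Rpl7a*, with over 90% repeated windows, lies at 251 RPKM as deposited and at 2.49 after the subtraction.

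A test was made for each gene with edgeR on the counts of all 10 mice, and a gene was called at an adjusted p below 0.05. A filter on low counts left 16860 genes, among them 71 core genes, 7 paralogs and 3 numbered copies (*Rpl23a-ps3*, *Rplp2-ps1* and *Rps6-ps1*). The untested core genes and paralogs were *Rpl17*, *Rpl36*, *Rpl3l*, *Rps16*, *Rps23* and *Rps27*. Over the 5 ages 38 of the 81 tested members differed, against 57.5% of all genes tested. They were 35 core genes, 3 paralogs and 0 copies. By mean library-scaled count as deposited, 51 of the 71 core genes were highest at PND 7 and 3 at PND 28, while 4 of the 7 paralogs were highest at PND 28. The age of the highest value was not counted over all genes tested, so these numbers are not read as particular to the members.

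From PND 7 to PND 28 more core genes fell than rose, and 4 paralogs rose. Of the 71 core genes tested, 34 fell, 3 rose and 34 were not called, with a median log2 fold change of -1.0 against 0.10 over all genes tested. Of the 7 paralogs, *Rpl39l*, *Rpl10l*, *Rpl22l1* and *Rps4y2* rose, *Rps27l* fell, and *Rpl36al* and *Rpl7l1* were not called. Together 35 of 81 tested members fell and 7 rose, where 27.1% of all genes tested fell and 35.6% rose. In all 42 of the 81 were called, or 51.9%, against 62.6% of all genes, and 35 were called with a change of at least 2-fold, against 55.6% of all genes. Of 43 large subunit core genes 19 fell and 3 rose, and of 28 small subunit core genes 15 fell and 0 rose, with medians of -1.0 and -0.98. The difference between the subunits was not tested. In the authors' mapping statistics a larger part of the reads lay on introns in both PND 7 mice than in both PND 28 mice. Some exon models of core genes include retained introns, and the part of such reads in these falls was not tested.

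**Figure D2:**
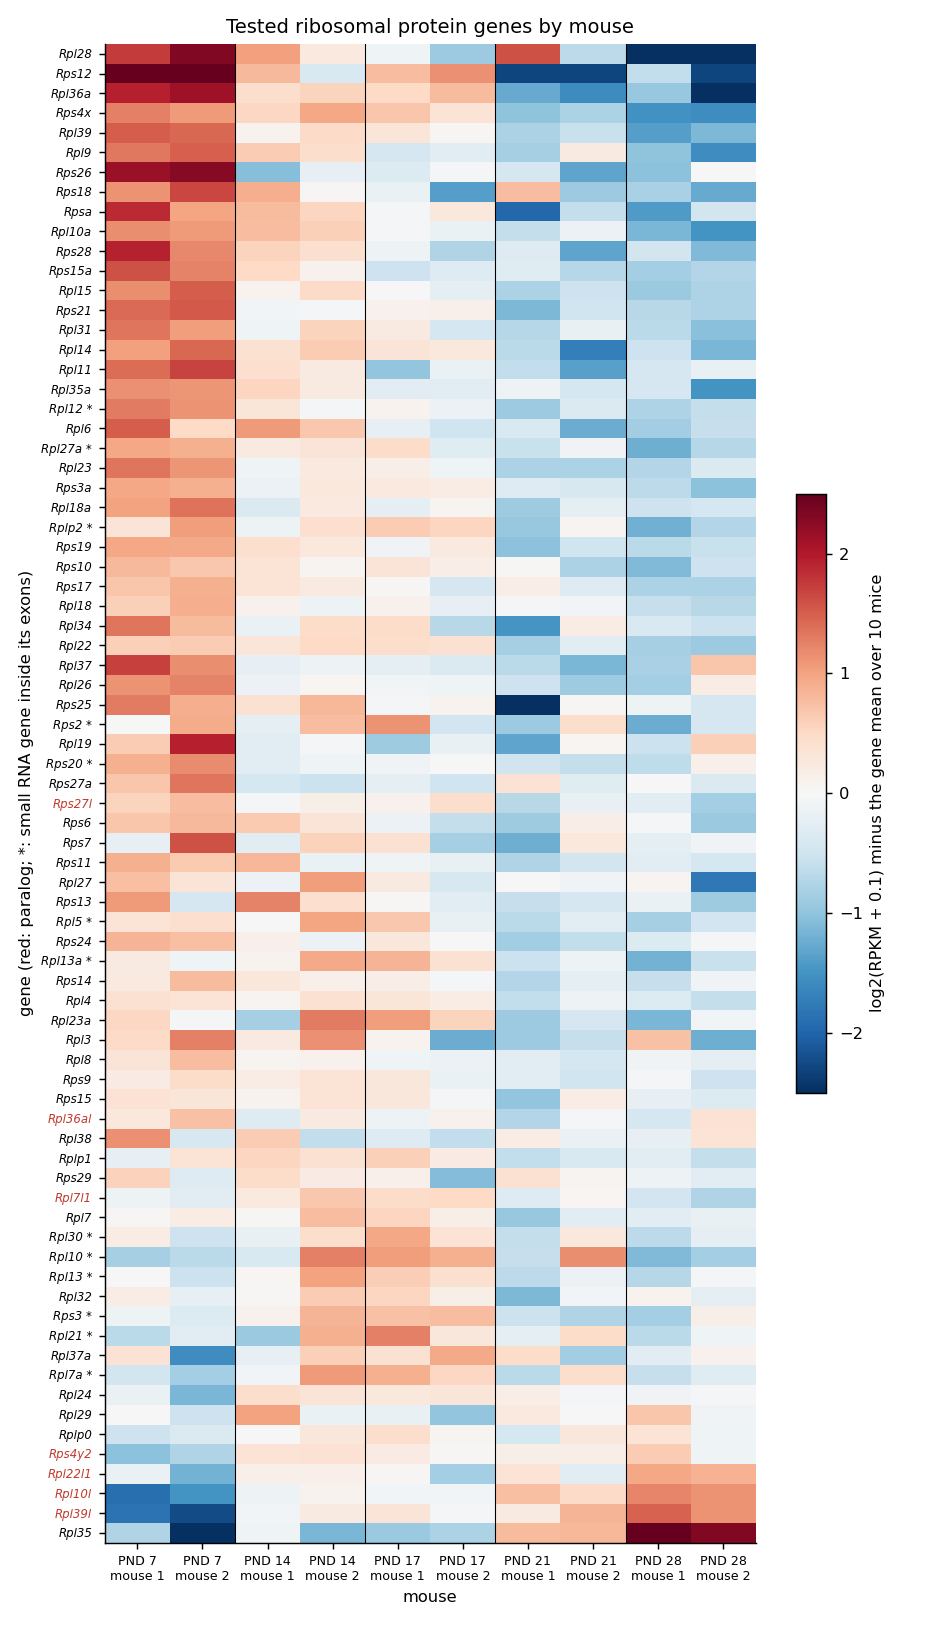
Heat map of 76 of the 78 tested core genes and paralogs (rows, ordered by their fitted change from PND 7 to PND 28) in the 10 mice (columns). Colour gives log2(RPKM + 0.1) minus the mean of the gene over all mice, cut at 2.5 either way, and names in red are paralogs; most rows are highest in the PND 7 mice, and *Rpl10l*, *Rpl39l* and *Rpl35* are highest in the PND 28 mice.

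*Rpl39l* encodes a close relative of eL39, a short protein that lines the exit tunnel of the large subunit. Its RPKM was 64.5 and 49.6 in the PND 7 mice, 221 and 274 at PND 14, 291 and 226 at PND 17, 271 and 420 at PND 21, and 646 and 507 at PND 28. The PND 7 and PND 28 mice did not overlap with each other or with any other age. The log2 fold change was 2.01 ± 0.32 (SE) in PND 7/14 (adjusted p = 0.00133) and 3.65 ± 0.34 in PND 7/28 (adjusted p = 6.75e-06), a 12.6-fold rise. None of its coding windows recurs in the genome.

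Its X-linked parent *Rpl39* moved the other way. *Rpl39* had 10.8 and 10.1 RPKM at PND 7, 3.92 and 5.22 at PND 14, 4.62 and 3.76 at PND 17, 2.11 and 2.49 at PND 21, and 1.36 and 1.65 at PND 28. It fell by 1.30 ± 0.38 on the log2 scale in PND 7/14 (adjusted p = 0.0335) and by 2.49 ± 0.42 in PND 7/28 (adjusted p = 0.000437). The call in PND 7/14 was lost without either PND 7 or either PND 14 mouse, at -1.09 to -1.60, and also without either PND 17 or either PND 28 mouse. *Rpl39l* made up 85.7% and 83.0% of the summed RPKM of the pair at PND 7 and 99.8% and 99.7% at PND 28. Since 88.8% of the coding windows of *Rpl39* recur elsewhere, and 13.2% of its exon windows, the share is one of uniquely counted reads.

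*Rpl10l* encodes a relative of uL16, which sits near the tRNA sites of the large subunit and is among the last proteins to join it. *Rpl10l* stood at 8.18 and 10.8 RPKM at PND 7, 28.0 and 32.4 at PND 14, 29.1 and 29.2 at PND 17, 51.2 and 42.7 at PND 21, and 70.9 and 66.3 at PND 28. The ages PND 14 and PND 17 overlapped, and the others formed rising, separate steps. The log2 fold changes were 1.62 ± 0.24 in PND 7/14 (adjusted p = 0.000881), 0.80 ± 0.23 in PND 17/21 (adjusted p = 0.0458) and 3.22 ± 0.25 in PND 7/28 (adjusted p = 1.98e-06). The call in PND 17/21 was lost without any single mouse of PND 17, PND 21 or PND 28, at 0.77 to 0.84.

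The X-linked parent *Rpl10* showed no called change as deposited, with a log2 fold change of 0.13 ± 0.60 in PND 7/28 (adjusted p = 0.859). Its deposited RPKM was 10.8 and 12 at PND 7, 14.8 and 46.4 at PND 14, 40.1 and 35.9 at PND 17, 12.9 and 43.2 at PND 21, and 8.95 and 10.7 at PND 28. The mice of an age differed by over 3-fold at PND 14 and PND 21, the ages at which the small RNA share also differed most. With the counts of Snora70 subtracted, *Rpl10* stood at 6.92 and 10.0 RPKM at PND 7, 3.61 and 2.03 at PND 14, 1.31 and 1.48 at PND 17, 0.922 and 1.02 at PND 21, and 0.539 and 0.309 at PND 28. The PND 28 values rest on 9 and 3 counts. On these counts *Rpl10* fell by 1.65 ± 0.44 on the log2 scale in PND 7/14 (adjusted p = 0.0235) and by 3.86 ± 0.53 in PND 7/28 (adjusted p = 0.000106). Snora70 itself rose by 2.91 in PND 7/14 (adjusted p = 0.0152). Repeated coding windows made up 100% of *Rpl10* and 12.4% of *Rpl10l*. Over the exon models that were counted, the repeated shares were 23.6% and 26.3%. With 100% of its coding windows repeated, reads wholly within the *Rpl10* coding sequence could not align uniquely, unlike most of those in *Rpl10l*. *Rpl10l* made up 43.0% and 47.3% of the deposited RPKM of the pair at PND 7 and 88.8% and 86.1% at PND 28. After the subtraction its share was 54.1% and 51.8% at PND 7 and 99.2% and 99.5% at PND 28. These are shares of uniquely counted reads. The *Rpl10* exon model includes the retained intron that holds Snora70, and the part of intron reads in its fall was not tested.

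*Rps4y2* is the name in the mm9 gene models of the gene that RefSeq lists as *Rps4l*, an intron-poor relative of *Rps4x* that RefSeq calls a transcribed pseudogene. *Rps4y2* had 14.1 and 16.9 RPKM at PND 7 and 26.6 to 44.7 RPKM in the 8 older mice. It rose by 1.12 ± 0.29 in PND 7/14 (adjusted p = 0.0197) and by 1.52 ± 0.29 in PND 7/28 (adjusted p = 0.00101), with no called step between. The PND 7/14 call was lost without the first PND 7 mouse (1.04), the second PND 7 mouse (1.26) or the second PND 14 mouse (1.05). *Rps4x*, a small subunit protein gene on the X chromosome, had 4.91 and 4.28 RPKM at PND 7, 2.88 and 3.97 at PND 14, 3.27 and 2.52 at PND 17, 0.93 and 1.10 at PND 21, and 0.63 and 0.61 at PND 28. It fell by 2.57 ± 0.52 in PND 7/28 (adjusted p = 0.00147), and the PND 21 and PND 28 mice lay below all younger mice. Of the coding windows of *Rps4x* 90.3% were repeated, and of those of *Rps4y2* 18%. Of their exon windows 40.2% and 15.7% were repeated.

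*Rpl22l1* rose while its parent *Rpl22* fell, and both are autosomal. *Rpl22l1* had 4.30 and 2.09 RPKM at PND 7 and 9.63 and 8.88 at PND 28, above all 8 other mice, with a log2 fold change of 1.83 ± 0.60 (adjusted p = 0.0213). The call was lost without the second PND 7 mouse (1.41) or either PND 28 mouse (1.77 and 1.91). *Rpl22* had 30.8 and 32.0 RPKM at PND 7 and 11.4 and 10.9 at PND 28, and fell by 1.16 ± 0.26 (adjusted p = 0.00248). The share of *Rpl22l1* in the pair went from 12.2% and 6.13% to 45.7% and 45.0%, with 81.9% repeated coding windows in *Rpl22l1* and 30.8% in *Rpl22*. Their repeated exon windows were 57.7% and 2.8%.

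In the other pairs no paralog rose. *Rpl36al*, the autosomal paralog of X-linked *Rpl36a*, had a log2 fold change of -0.20 ± 0.47 in PND 7/28 (adjusted p = 0.722, 95% interval -1.12 to 0.71). *Rpl36a* went from 34 and 28 counts at PND 7 to 3 and 0 at PND 28, a ratio of 13.8 with a 95% counting interval of 4.52 to 68.9, and was called lower (adjusted p = 0.00382). Their coding windows were repeated to 81.6% in *Rpl36al* and 100% in *Rpl36a*, and their exon windows to 24.2% and 17.4%. *Rps27l* fell by 0.86 ± 0.32 (adjusted p = 0.0339), from 45.1 and 52.2 RPKM to 25.5 and 16.9, a call lost without the second PND 7 mouse (-0.76), the second PND 28 mouse (-0.58) or either PND 17 mouse (-0.85), and *Rps27*, with all coding windows repeated, could not be compared at 4 counts. *Rpl7l1* and *Rpl7* had changes of -0.07 ± 0.27 and -0.01 ± 0.34, with 95% intervals of -0.60 to 0.45 and -0.68 to 0.66. They had 22.3% and 66.8% repeated coding windows and 14.6% and 19.7% repeated exon windows. *Rpl3l* lay at or below 0.53 RPKM in every mouse and *Rpl3* had a change of -0.40 ± 0.77. The gene RefSeq lists as *Rpl26l1* is *Rpl26-ps4* here, with 17 counts in all, while *Rpl26* fell by 1.09 ± 0.31 (adjusted p = 0.0102), or by 0.64 without the first PND 28 mouse, then not called.

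**Figure D3:**
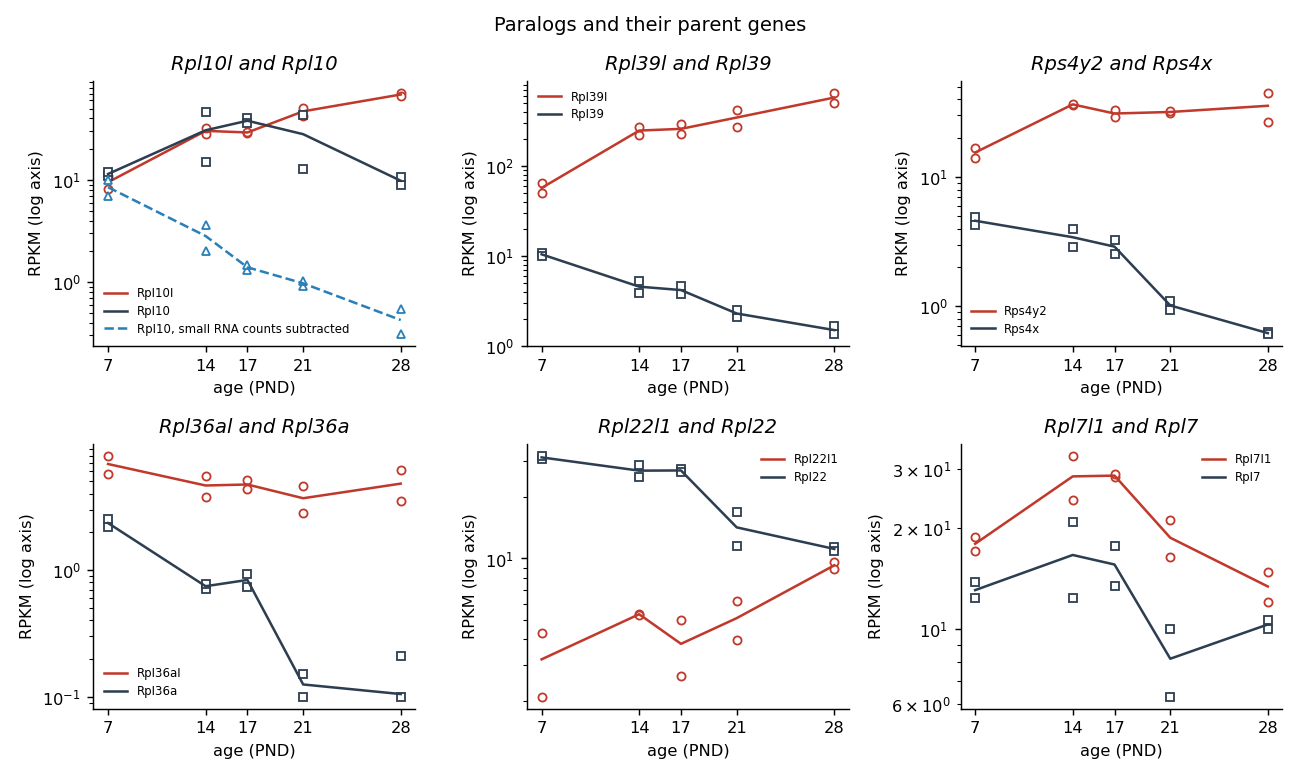
RPKM (log axis) against age for 6 paralogs (circles) and their parents (squares), 1 point per mouse with lines through the mean of the 2 mice; values under 0.1 are drawn at 0.1. Triangles give *Rpl10* after subtraction of Snora70 counts, which runs from 6.92 and 10.0 down to 0.539 and 0.309 RPKM while *Rpl10l* runs up to 70.9 and 66.3.

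The 4 core genes on the X chromosome are *Rpl10*, *Rpl36a*, *Rpl39* and *Rps4x*. As deposited, 3 of the 4 fell in PND 7/28, with a median log2 fold change of -2.53, and after the subtraction 4 of the 4 fell, with a median of -3.18. Of the 67 autosomal core genes, 31 fell and 3 rose, with a median of -0.96, or -1.16 after subtraction. Over all X-linked protein-coding genes tested the median was -1.17 and 51.8% of 597 fell, against 0.04 and 28.1% of 14286 autosomal ones. The difference between X-linked and autosomal members was not tested. Each of the 4 X-linked core genes has an autosomal paralog among the members, and in each pair the share of the paralog was higher in both PND 28 mice than in both PND 7 mice. These are shares of uniquely counted reads. The same held for *Rpl22l1* and *Rpl22*, which are both autosomal. *Rpl36al* itself was not called, and *Rpl36a* had 3 and 0 counts at PND 28.

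**Figure D4:**
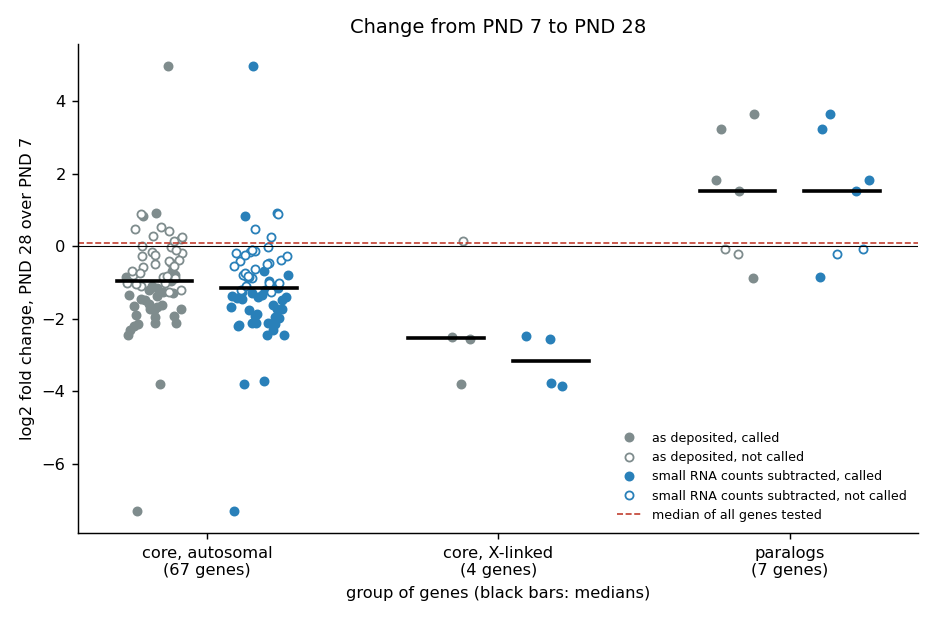
Fitted log2 fold change of PND 28 over PND 7 for autosomal core genes, X-linked core genes and paralogs, as deposited (grey) and after subtraction of nested small RNA counts (blue). Filled points were called, black bars are medians, and the dashed line is the median of all genes tested, 0.10; the X-linked median lies at -2.53 as deposited and -3.18 after subtraction.

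The promoters of both leading pairs were read from RefSeq, whose promoter table is on GRCm38.p6. The 150 bases before the start are given 5′ to 3′ on the strand of the gene, with TTCCGG and its reverse complement CCGGAA, the core of an ETS family element known from ribosomal protein promoters, in capitals.

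*Rpl10*, chrX:74270666-74270815, plus strand: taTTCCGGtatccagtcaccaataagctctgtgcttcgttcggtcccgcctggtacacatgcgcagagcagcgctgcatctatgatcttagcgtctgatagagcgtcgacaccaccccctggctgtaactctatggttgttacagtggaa
*Rpl10l*, chr12:66284402-66284551, minus strand: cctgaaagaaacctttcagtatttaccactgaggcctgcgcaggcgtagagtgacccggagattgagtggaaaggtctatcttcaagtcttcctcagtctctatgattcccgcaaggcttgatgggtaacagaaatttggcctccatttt
*Rpl39*, chrX:37085223-37085372, minus strand: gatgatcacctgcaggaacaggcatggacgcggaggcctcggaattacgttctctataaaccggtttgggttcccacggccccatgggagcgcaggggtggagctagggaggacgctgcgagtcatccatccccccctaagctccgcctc
*Rpl39l*, chr16:10170078-10170227, plus strand: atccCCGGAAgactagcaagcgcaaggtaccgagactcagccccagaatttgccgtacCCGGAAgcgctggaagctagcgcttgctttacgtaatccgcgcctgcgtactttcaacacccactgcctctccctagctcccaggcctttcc

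Of the 84 core genes and paralogs, 62 matched the promoter table by symbol, with 74 promoters. TTCCGG or CCGGAA occurred in 34 of these 74 windows of 300 bases (250 before the start to 50 after), or 45.9%, and in 14.9% of all 32851 promoters. In that window *Rpl39l* held it at 4 positions, *Rpl10* and *Rpl39* at 1 each and *Rpl10l* at 0. A match is a description of the sequence, and its bearing on expression was not tested.

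The genes that host nested snoRNAs gave different results with and without those counts. As deposited, 4 of the 15 core genes with a small RNA gene in their exons fell in PND 7/28 (26.7%, against 27.1% of all genes tested) and 0 rose, with a median of -0.45.

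*Rps3*, which lies at the mRNA entry of the small subunit, had 264 and 224 RPKM at PND 7, 308 and 512 at PND 14, 474 and 488 at PND 17, 197 and 171 at PND 21, and 158 and 318 at PND 28. After subtraction it stood at 97 and 103 RPKM at PND 7, between 59.9 and 62.1 in the 4 mice of PND 14 and PND 17, at 32.4 and 40.4 at PND 21, and at 29.7 and 30.2 at PND 28. In the subtracted values PND 7 lay above PND 14 and PND 17, and these above PND 21 and PND 28. The change in PND 7/28 went from 0.29 ± 0.36 to -1.42 ± 0.22 (adjusted p = 0.000266). For *Rpl13* the change went from 0.21 to -2.16 ± 0.34 (adjusted p = 0.000285), and for *Rpl21* from 0.43 to -2.44 ± 0.39 (adjusted p = 0.000275). *Rpl13*, *Rpl21*, *Rpl5* and *Rpl13a* are named here after their values were seen. *Rpl5*, which binds 5S ribosomal RNA, went from -0.69 to -2.11 ± 0.33, and *Rpl13a* from -0.58 to -1.4 ± 0.22. Snord32a, with 79 of its 83 bases in exons of *Rpl13a* and 3747 counts, was not subtracted, as it lies only partly in exons. Snord32a fell by 1.74 (adjusted p = 0.00459), and *Rpl13a* kept 8085 counts. Exons of *Flt3l*, with 160 counts, overlap 34.3% of the *Rpl13a* exon bases. The part of both in the fall of *Rpl13a* was not tested. For *Rpl7a* the change went from 0.52 to -0.14, for *Rpl30* from 0.00 to -0.10 and for *Rps2* from -1.01 to -0.62, none of them called. The changes of *Rplp2*, -1.36 before and after, and of *Rps20*, -0.96 before and after, hardly moved, and those of *Rpl12*, from -1.64 to -1.40, and *Rpl27a*, from -1.59 to -1.97, kept their sign; all 4 were called either way. With the subtraction, 42 members fell and 7 rose in PND 7/28, and 20 fell and 3 rose in PND 7/14. In the fit without subtraction 27.1% of all genes tested fell and 35.6% rose in PND 7/28. In PND 7/14 6.43% fell and 15.8% rose.

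**Figure D5:**
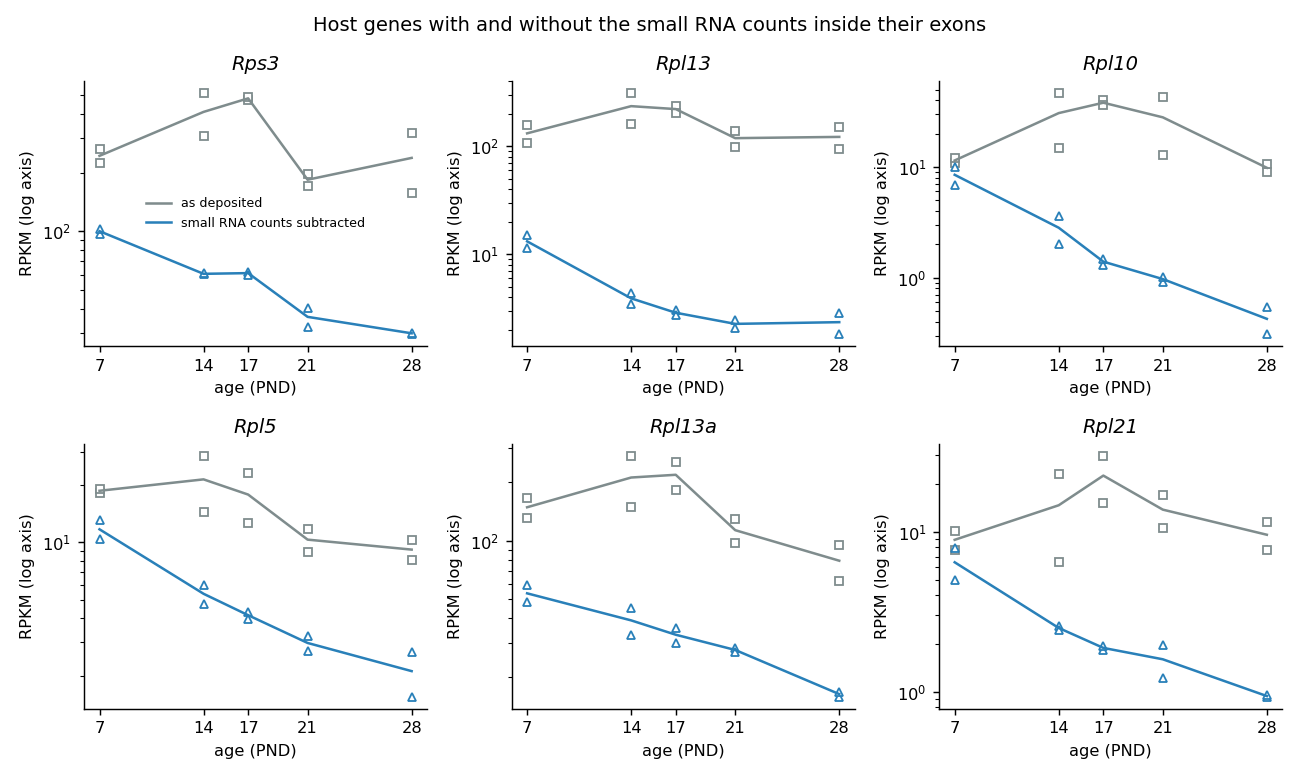
RPKM (log axis) against age for 6 genes with snoRNA genes inside their exons, as deposited (squares) and after subtraction of the nested counts (triangles), 1 point per mouse with lines through the mean of the 2 mice. *Rps3* runs from 264 and 224 to 158 and 318 RPKM as deposited and from 97 and 103 to 29.7 and 30.2 after subtraction.

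In PND 7/14, when the first spermatocytes appear, 14 members fell and 3 rose, where 6.43% of all genes tested fell and 15.8% rose. The 3 that rose were the paralogs *Rpl39l*, *Rpl10l* and *Rps4y2*, and the 14 that fell were core genes. The median over the 71 core genes was -0.57 and that over all genes 0.11. Without the first PND 14 mouse 7 fell and 6 rose, and without the second 8 fell and 2 rose. *Rpl39l* and *Rpl10l* were not higher in the first PND 14 mouse, with its higher spermatid sum, than in the second, and without it their log2 fold changes were 2.18 and 1.74.

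*Rps26*, a small subunit protein at the mRNA exit, had the largest fall at this step. It had 287 and 312 RPKM at PND 7, 31 and 55.7 at PND 14, 50.9 and 62.7 at PND 17, 48.0 and 25.8 at PND 21, and 31.9 and 64.9 at PND 28. The fall was by 2.87 ± 0.41 on the log2 scale (7.31-fold, adjusted p = 0.000688), and it was by 2.49 without the first PND 14 mouse, still called. Among the older mice those of PND 17 lay above those of PND 21, and the other ages overlapped. *Rpl37*, a large subunit protein, went from 27.8 and 18.8 to 7.23 and 7.64 RPKM, a fall by 1.80 ± 0.47 (adjusted p = 0.0208). *Rps27a*, made as a fusion of ubiquitin with a small subunit protein, went from 6.93 and 11 to 3.11 and 2.92 RPKM, a fall by 1.64 ± 0.38 (adjusted p = 0.0115). The call of *Rpl37* was lost without the first PND 7 mouse (-1.44) or either PND 14 mouse, and that of *Rps27a* without the second PND 7 mouse (-1.26) or the second PND 14 mouse (-1.67). *Rpl37* and *Rps27a* were not called in PND 7/28, at -1.10 ± 0.46 (adjusted p = 0.0581) and -0.89 ± 0.37 (adjusted p = 0.0572). Of the *Rps27a* exon bases 160, or 8.11%, overlap exons of *1700034F02Rik* on the other strand. That gene rose by 4.22 in PND 7/14 and by 6.47 in PND 7/28. Whether its reads entered the *Rps27a* counts was not tested. In *Rpl37* the second PND 28 mouse, at 13.7 RPKM, lay above the first, at 4.77.

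In PND 14/17 edgeR called no member and no other gene (0.0% of 16860). At an unadjusted p under 0.05 there were 2 members and 769 genes, and DESeq2 and limma called 0 members. In PND 17/21, when round spermatids first appear, 1 member rose and 2 fell, where 10.0% of all genes rose and 1.74% fell. The gene that rose was *Rpl10l*. Of those that fell, *Rps3* fell by 1.27 ± 0.36 (adjusted p = 0.0449) as deposited, and its change was -0.61 ± 0.22 (adjusted p = 0.0944) after subtraction of Snord15b, which fell by 1.4 (adjusted p = 0.0487). The call of *Rps3* was lost without any single mouse of PND 17 or PND 21, at -1.23 to -1.31. In PND 21/28 edgeR called 0 members, against 8.27% of all genes. There 8 members had an unadjusted p under 0.05, and DESeq2 called 3 members. *Rpl10l* and *Rpl39l* had log2 fold changes of 0.78 ± 0.23 (adjusted p = 0.0589) and 0.94 ± 0.31 (adjusted p = 0.0880) at that step.

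The largest fitted falls in PND 7/28 rested on few counts. *Rpl28*, a large subunit protein, had 21 and 24 counts at PND 7 and 0 in both PND 28 mice, at least 10.4-fold lower against a floor of 3 counts over both mice (adjusted p = 0.00308). *Rps12*, a small subunit protein, had 14 and 10 counts at PND 7 and 1 and 0 at PND 28, a ratio of 16.1 with a 95% counting interval of 2.62 to 661.0 (adjusted p = 0.0158). Its fitted change kept its sign but was not called without either PND 28 mouse or the second PND 17 mouse. All coding windows of *Rpl28*, *Rps12* and *Rpl36a* recur elsewhere in the genome, and 30.1%, 97.8% and 17.4% of their exon windows. Falls were also called among genes with little repeated sequence. Among the 8 core genes with nothing else in their exons and under 50% repeated windows, 8 of 8 fitted changes were negative, 4 were called lower and the median was -0.65. Over all 16860 genes tested 8086 fitted changes were negative, 27.1% were called lower and the median was 0.10. The median over these 8 lay closer to 0 than that over all 71 core genes.

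The core genes that rose in PND 7/28 were *Rpl35*, *Rplp0* and *Rpl24*, the last pair named after their values were seen. *Rpl35*, a large subunit protein near the exit tunnel, had 0.64 and 0.00 RPKM at PND 7 and 13.1 and 6.05 at PND 28, a log2 fold change of 4.97 ± 0.89 (adjusted p = 0.00067). Of its exon bases 821, or 66.2%, overlap exons of *Wdr38* on the other strand, which rose by 3.67 in the same comparison (adjusted p = 0.000116). The sources used here do not state whether strand was used in counting, so reads of *Rpl35* and *Wdr38* cannot be told apart. *Rplp0*, the base of the ribosomal stalk, went from 28.5 and 31.7 to 51.6 and 37.9 RPKM (log2 fold change 0.92 ± 0.31, adjusted p = 0.0230), and was not called without either PND 7 mouse (0.89 and 0.98) or the first PND 28 mouse (0.68). *Rpl24* went from 12.3 and 6.15 to 13.0 and 13.4 RPKM (0.83 ± 0.29, adjusted p = 0.0266), and was not called without the second PND 7 mouse (0.41) or either PND 28 mouse (0.86 and 0.84). With counts scaled by library totals, *Rplp0* and *Rpl24* kept a positive sign, at 0.60 and 0.52, and were not called. The *Rpl24* model has 6029 exon bases, and its longest coding sequence gave 3104 windows, far more than in most members. Its counts may thus not all be of the ribosomal protein mRNA. Of its exon bases 238, or 3.95%, overlap exons of *Pcnp* on the other strand, which was not called (-0.18). Exons of another gene overlap those of 17 members in all. Without members that share exon bases with any other gene, 5 of 55 rose and 25 fell, where 35.6% of all genes tested rose and 27.1% fell.

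The share of all counts on the 139 members was 0.621% and 0.602% at PND 7, 0.571% and 0.955% at PND 14, 0.917% and 0.807% at PND 17, 0.416% and 0.563% at PND 21, and 0.398% and 0.520% at PND 28. With the nested snoRNA counts subtracted it was 0.366% and 0.377% at PND 7, 0.278% and 0.296% at PND 14, 0.287% and 0.261% at PND 17, 0.183% and 0.216% at PND 21, and 0.225% and 0.213% at PND 28. The subtracted shares of the PND 7 mice lay above all others, and those of PND 21 and PND 28 overlapped below all others. These shares leave out reads that align to several places, and the differences were not tested.

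Lists of other translation genes were counted in the same comparison. Of 75 mitochondrial ribosomal protein genes tested, which serve the separate ribosome of the mitochondrion, 25 rose (33.3%, against 35.6% of all genes tested) and 8 fell (10.7%, against 27.1%) in PND 7/28, with a median of 0.22. *Mrps31* had the largest rise, 2.73 ± 0.37 (adjusted p = 9.19e-05), and *Mrps21* the largest called fall, by 1.72 ± 0.58 (adjusted p = 0.0239). Of 57 initiation factor genes 22 rose (38.6%) and 8 fell (14.0%), with a median of 0.22, led by *Eif3b*, a scaffold subunit of eIF3, at 2.1 ± 0.21 (adjusted p = 1.02e-05). The largest fall on that list, of *Eif2c1* by 2.49 ± 0.37, is of a gene that encodes an Argonaute protein. Of 45 ribosome biogenesis genes 12 rose (26.7%) and 13 fell (28.9%), with a median of 0.13, from *Wdr12*, a factor of large subunit assembly, at 3.16 ± 0.30 to *Dkc1*, the X-linked pseudouridine synthase of H/ACA snoRNAs, at -2.62 ± 0.30. Among 8 elongation factor genes 2 rose and 3 fell, with *Eef2* at 1.71 ± 0.29 and both genes named *Eef2k*, which encodes a kinase of that factor and not an elongation factor, among the 3 that fell. *Pabpc1*, the cytoplasmic poly(A)-binding protein, rose by 2.53 ± 0.26 and had the largest rise of 7 nascent chain and 5′ TOP mRNA partners, of which 3 rose and 0 fell. Of the ubiquitin fusion and ribosome-bound genes, *Fau* and *Gnb2l1* had changes of 0.68 and -0.40, neither called. The difference between these lists and the core genes was not tested.

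Markers of the cell types in the testis moved in the same comparison. The summed RPKM of 7 Sertoli cell genes went from 658 and 536 at PND 7 to 117 and 159 at PND 28, and 6 of the 7 fell. That of 6 spermatogonial genes went from 205 and 165 to 48.0 and 54.2, and 5 of the 6 fell. That of 4 peritubular myoid genes went from 178 and 232 to 51.7 and 64.7, with 3 of the 4 lower. Leydig cell genes went from 148 and 180 to 581 and 456, with 3 of 6 higher, and 3 macrophage genes stayed between 5.51 and 13.0 in all mice. Of the 7 spermatid genes 7 rose, as did 6 of the 6 spermatocyte genes. No marker was at 0 in every mouse. The part of these shifts in the changes of the ribosomal protein genes was not tested.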

How the data were processed

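Total RNA of whole testes was sequenced by the authors on a SOLiD 4 as reads of 50 bp, aligned to mm9 with LifeScope v2.1, freed of ribosomal RNA, transfer RNA and repeat reads and of reads with more than 10 alignments, and counted on Ensembl genes. The authors deposited a raw count of unique reads per gene and an RPKM, which divides the count by exon length and counted reads. Each PND 7 mouse has 2 barcodes, whose counts were summed and RPKM averaged, giving 10 mice. Of 37675 genes, 37310 were matched to GENCODE M1 by ID with identical exon length.

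Counts were scaled by TMM and tested with edgeR 4.0.16 (quasi-likelihood F test, R 4.3.3, age as factor, all 10 mice) after filterByExpr. P-values were adjusted by Benjamini-Hochberg over all 16860 genes tested. Fold changes are of the later over the earlier age, with SE. Whether strand was used in counting is not given in the sources used here. Total counts of 3994026 to 13559548 limit the precision of low members, and counting intervals cover counting error only. Intervals of fold changes come from the SE by a normal approximation and include the spread between mice. With so few mice they are narrower than intervals at the degrees of freedom of the test.

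The named members were all paralogs and parents, X-linked members, the 5 highest and 5 lowest by mean RPKM, and the 3 largest called rises and falls of each comparison. From each other list came the largest called rise and fall in PND 7/28. Members and lists were chosen with earlier results of these data known. Alternatives used DESeq2 1.42.0, limma 3.58.1 on log2(RPKM + 1) and log2(RPKM + 0.1), RLE or library-total scaling, TMM without members or without small structural RNAs and mitochondrial genes, no filter or at least 10 counts in 4 mice, only the mice compared, separate barcodes, a replicate block, a 2-fold minimum, and each mouse left out. The subtraction of nested snoRNA counts was chosen after seeing the data. Some members that this rule names are not reported here and are left out of the heat map. The code was tested on simulated data.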

Additional observations from a re-analysis of the deposited data

How the results depend on the processing

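The number of members called in PND 7/28 was 42 and stayed within 1.5 times of that under every alternative except leaving out 1 mouse, where it ranged from 27 (without the first PND 28 mouse) to 43. In PND 7/14 it was 17, became 29 with the PND 7 barcodes as separate libraries, and ranged from 9 (without the second PND 7 mouse) to 18 with 1 mouse left out, with 10 without the second PND 14 mouse. In PND 17/21 it was 3, became 1 with RLE scaling or a 2-fold minimum, 8 without a filter and 12 with limma on log2(RPKM + 1), and ranged from 0 to 4 with 1 mouse left out. It was 0 without either PND 17 mouse or the first PND 21 mouse and 1 without either PND 28 mouse. In PND 21/28 it was 0, became 1 with RLE scaling, with only the 4 mice compared or with limma on log2(RPKM + 1), 3 with DESeq2 or separate barcodes and 5 without a filter, and ranged from 0 to 2 with 1 mouse left out, the 2 being without the second PND 7 mouse and 1 without the first. In PND 14/17 it ranged from 0 to 0. The number that differed over the 5 ages was 38 and ranged from 31 to 46. Subtraction of nested snoRNA counts turned the sign in PND 7/28 of hosts that include *Rpl21* (-2.44), *Rps3* (-1.42), *Rpl13* (-2.16), *Rpl10* (-3.86) and *Rpl7a* (-0.14, not called either way). The share of counts on the members had means of 0.612% at PND 7 and 0.459% at PND 28, became 1.02% and 0.564% without small RNAs and mitochondrial genes in the total, and 0.371% and 0.219% after subtraction. Library-total scaling moved the median log2 fold change of all genes in PND 7/28 from 0.10 to -0.22, and then 5 members rose and 44 fell.

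A replicate block on the labels' mouse numbers gave 17 calls for PND 7/14, 2 for PND 17/21, 41 for PND 7/28 and 0 for the other steps, and *Rpl10l* lost its call in PND 17/21 at 0.80, as did *Rps24* in PND 7/28, and no other call of a member changed. The numbers share only a label: deviations of same-numbered mice correlated between -0.21 and 0.37 over 10 pairs of ages, above 0.1 in 2 of them, and 4 of 5 ages lay closer to their own number.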
